A study of Mus musculus with 9 samples.

Results

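The genes that encode the proteins of the cytosolic ribosome were compared between mouse CD4+ T cells before and during allergic lung inflammation. Members were taken by symbol (Rpl, Rps and Rplp followed by a number and, in some, a or x), and each had to have at least 1 probe set of its own, that is, one annotated to no other gene. That gave 52 genes of the 19937 genes with such a probe set, of which 30 encode large subunit proteins, 19 small subunit proteins and 3 the stalk of the large subunit. A gene was read from its brightest probe set. A further 16 ribosomal protein symbols, among them Rpl11, Rpl13a, Rps24 and Rps26, stood only on probe sets shared with other genes and have no value here.

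The cytosolic ribosome is built from a small subunit, which reads the mRNA, and a large subunit, which joins amino acids into protein. A cell makes its ribosomal proteins in step with each other and with ribosomal RNA, and T cells build many ribosomes when they leave rest after stimulation through the T cell receptor. Mammalian ribosomal protein mRNAs start with a run of pyrimidines, the 5′ terminal oligopyrimidine tract, through which the mTOR kinase and the RNA-binding protein Larp1 control their translation and stability. The mouse genome also holds many processed copies of these genes with near-identical sequence, so that hybridisation from a copy cannot be separated from that of the gene.

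RNA was measured on Affymetrix arrays in 3 groups of 3 samples. Naive CD4+ cells (CD44-, with a further surface marker) were sorted from the spleens of sham-treated mice at day 29. Acute Th2 cells (CD4+ CD69+ ST2+) were sorted from lungs at day 29, after 3 intraperitoneal injections of 10 µg ovalbumin with 1.5 mg aluminium hydroxide on days 1, 14 and 21 and then 3 days of 1% ovalbumin aerosol. Chronic Th2 cells came from lungs at day 104, after the same injections and 12 weeks of aerosol. All the cells, the naive ones included, were stimulated with antibodies to CD3 and CD28 for 8 hours after sorting. No group was measured without this treatment, but naive replicate 1 read low for stimulation response genes, as given below. Lung cells went through enzymatic digestion, and cell state and tissue of origin cannot be told apart, nor can stage and day of collection for the chronic group against either other group. The labels give no strain, sex or age, and they call the samples biological replicates without naming separate animals, so p-values measure the spread between these samples.

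The first bases of the mRNA are where the pyrimidine tract lies, so the start of transcription is shown for members whose signal fell in chronic Th2 cells and for the 4 with the largest positive difference there. RefSeq start sites on GRCm38.p6 were found for 41 of the 52 members, in 48 windows. Each line below runs 5′ to 3′ on the gene's strand from 10 bases before the start site to 20 bases from it, with the longest run of C and T in capitals. For genes with several start sites the window with the longest run is given. A marked run can lie before the start site, as in Rpl19, or further into the mRNA, as in Rps19. It therefore need not be a tract at the 5′ end of the mRNA. The first 8 belong to genes that fell, and the last 4 to genes that did not.
Rps19 (GRCm38.p6 chr7:24884903-24884932, plus strand): agcggggtgtggagggCTCTCCCacgcggt
Rps21 (GRCm38.p6 chr2:180257369-180257398, plus strand): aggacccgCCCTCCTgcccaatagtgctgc
Rps28 (GRCm38.p6 chr17:33824543-33824572, minus strand): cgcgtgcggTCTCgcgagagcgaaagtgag
Rpl19 (GRCm38.p6 chr11:98026914-98026943, plus strand): TCTCCCCTTCgcagataatgggcggagcct
Rpl23 (GRCm38.p6 chr11:97782420-97782449, minus strand): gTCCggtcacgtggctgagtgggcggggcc
Rpl26 (GRCm38.p6 chr11:68901556-68901585, plus strand): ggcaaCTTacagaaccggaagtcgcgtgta
Rpl27a (GRCm38.p6 chr7:109519185-109519214, plus strand): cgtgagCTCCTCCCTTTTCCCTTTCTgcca
Rplp2 (GRCm38.p6 chr7:141447641-141447670, plus strand): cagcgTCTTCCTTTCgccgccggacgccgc
Rps6 (GRCm38.p6 chr4:86857348-86857377, minus strand): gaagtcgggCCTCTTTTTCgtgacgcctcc
Rpl7a (GRCm38.p6 chr2:26910797-26910826, plus strand): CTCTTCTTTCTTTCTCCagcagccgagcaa
Rpl27 (GRCm38.p6 chr11:101442235-101442264, plus strand): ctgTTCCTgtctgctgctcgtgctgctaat
Rpl41 (GRCm38.p6 chr10:128549149-128549178, minus strand): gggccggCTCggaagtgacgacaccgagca
The longest run was 20 bases in Rpl27a, which fell, and 17 in Rpl7a, which neither fell nor rose. The log2 difference of Rpl7a was 0.08, with a 95% interval of -0.14 to 0.29.

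A run of at least 6 pyrimidines, anywhere in the window, was present in 24 of the 48 members' windows (50.0%). The same 30-base windows of all 32851 RefSeq promoters held one in 28.7% of cases. The core of the ETS factor site, CGGAAG or on the other strand CTTCCG, was present in 64.6% of the members' promoters of 300 bases and in 16.9% of all promoters. A pyrimidine run can overlap the second of these spellings. TATAAA, searched on both strands in the same 300 bases, was present in 10.4% of the members' promoters and 13.6% of all. The 12 windows of members that fell held a pyrimidine run in 41.7% of cases and the ETS core in 66.7%, and the 36 windows of the other members in 52.8% and 63.9%. These are letter matches and not measured sites.

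Values below are log2 intensities, so a difference of 1 is a 2-fold difference in signal. A gene was called, and is said to have risen or fallen, at an adjusted p under 0.05 from limma fitted over all 19937 genes and 9 arrays. The members' means over the arrays ran from 6.78 (Rpl7a) to 13.52 (Rps6), with 13.79 as the highest value in the whole table. None lay under 6.53, the 95th percentile of the means of the olfactory receptor genes, a class of sensory receptors that stands here for background. Probe sets differ in how well they bind, so brightness does not rank these transcripts.

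Group identity was read from the lineage genes before the members were compared. Cd44, Gata3, Il4, Il5 and Il13 rose in both lung groups, the 5 called of 9 listed sort and lineage genes with a value. Gata3 was at 8.25 to 9.63 in naive arrays and 11.68 to 12.02 in Th2 arrays. Of the 9 genes 0 fell, though 3 lay below 0 in acute and 4 in chronic against naive cells. Mean Cd4 was 9.96 in naive, 10.31 in acute and 9.77 in chronic cells, and mean Cd3e 11.81, 11.45 and 11.5. Il1rl1, which encodes the sort marker ST2, has no value in the gene table used and was not analysed here. Naive replicate 1 stood apart: its correlation with the other naive arrays was 0.938 and 0.941, against 0.991 between those. Il2, a gene induced by stimulation, read 5.07 in it and 11.33 and 11.27 in the others. The 12 listed stimulation response genes, Il2 among them, had a median of 8.37 in it and 10.73 and 11.02 in the others. Lung arrays had medians of 10.63 to 11.04 for this list. How far naive replicate 1 responded to stimulation was not tested, and it stayed in the main fit. Markers of B cells had array medians of 5.54 to 5.91 in naive, 5.65 to 5.72 in acute and 5.75 to 5.84 in chronic cells, and those of lung epithelium 5.78 to 5.99, 5.85 to 6.08 and 5.98 to 6.11. The B cell and epithelial medians lie under the background threshold of 6.53. In chronic against naive cells, Cd79a was lower, at -0.61, the 1 called gene of 6 B cell markers, and Sftpa1 higher, at 0.54, the 1 of 7 epithelial markers. Of the 6 markers of type 2 innate lymphoid cells, 4 rose in both lung groups, among them Gata3, which Th2 cells also express. Lists for CD8 T, NK, myeloid, granulocyte, mast, stromal and erythroid cells had 0 called genes against naive cells, and 0 to 2 each at an unadjusted p under 0.05. The CD8 genes had array medians of 6.57 to 7.04 in naive, 6.35 to 6.49 in acute and 6.44 to 6.54 in chronic cells. The part of other cell types in the members' values was not tested.

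In chronic Th2 cells, 10 of the 52 ribosomal protein genes fell against naive cells and 0 rose. The members' median difference was -0.42, and 47 of the 52 lay below 0. The largest falls were in Rpl27a, Rplp2, Rps21 and Rpl26, each by 0.82 to 0.94 on the log2 scale. Over all genes the fit called 4.2% lower and 3.68% higher, the median was 0.04, and 42.7% lay below 0. The 10 make up 19.2% of the members, and at an unadjusted p under 0.05 the count was 33 lower and 0 higher, beside 2543 lower of all 19937 genes. The groups did not overlap, with all chronic arrays under all naive arrays, for 26 members, and the reverse held for 0. Across all genes 12.3% were separated in the lower direction and 15.6% in the higher. In these bulk samples, fewer cells making a transcript and less of it per cell cannot be told apart.

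**Figure D1:**
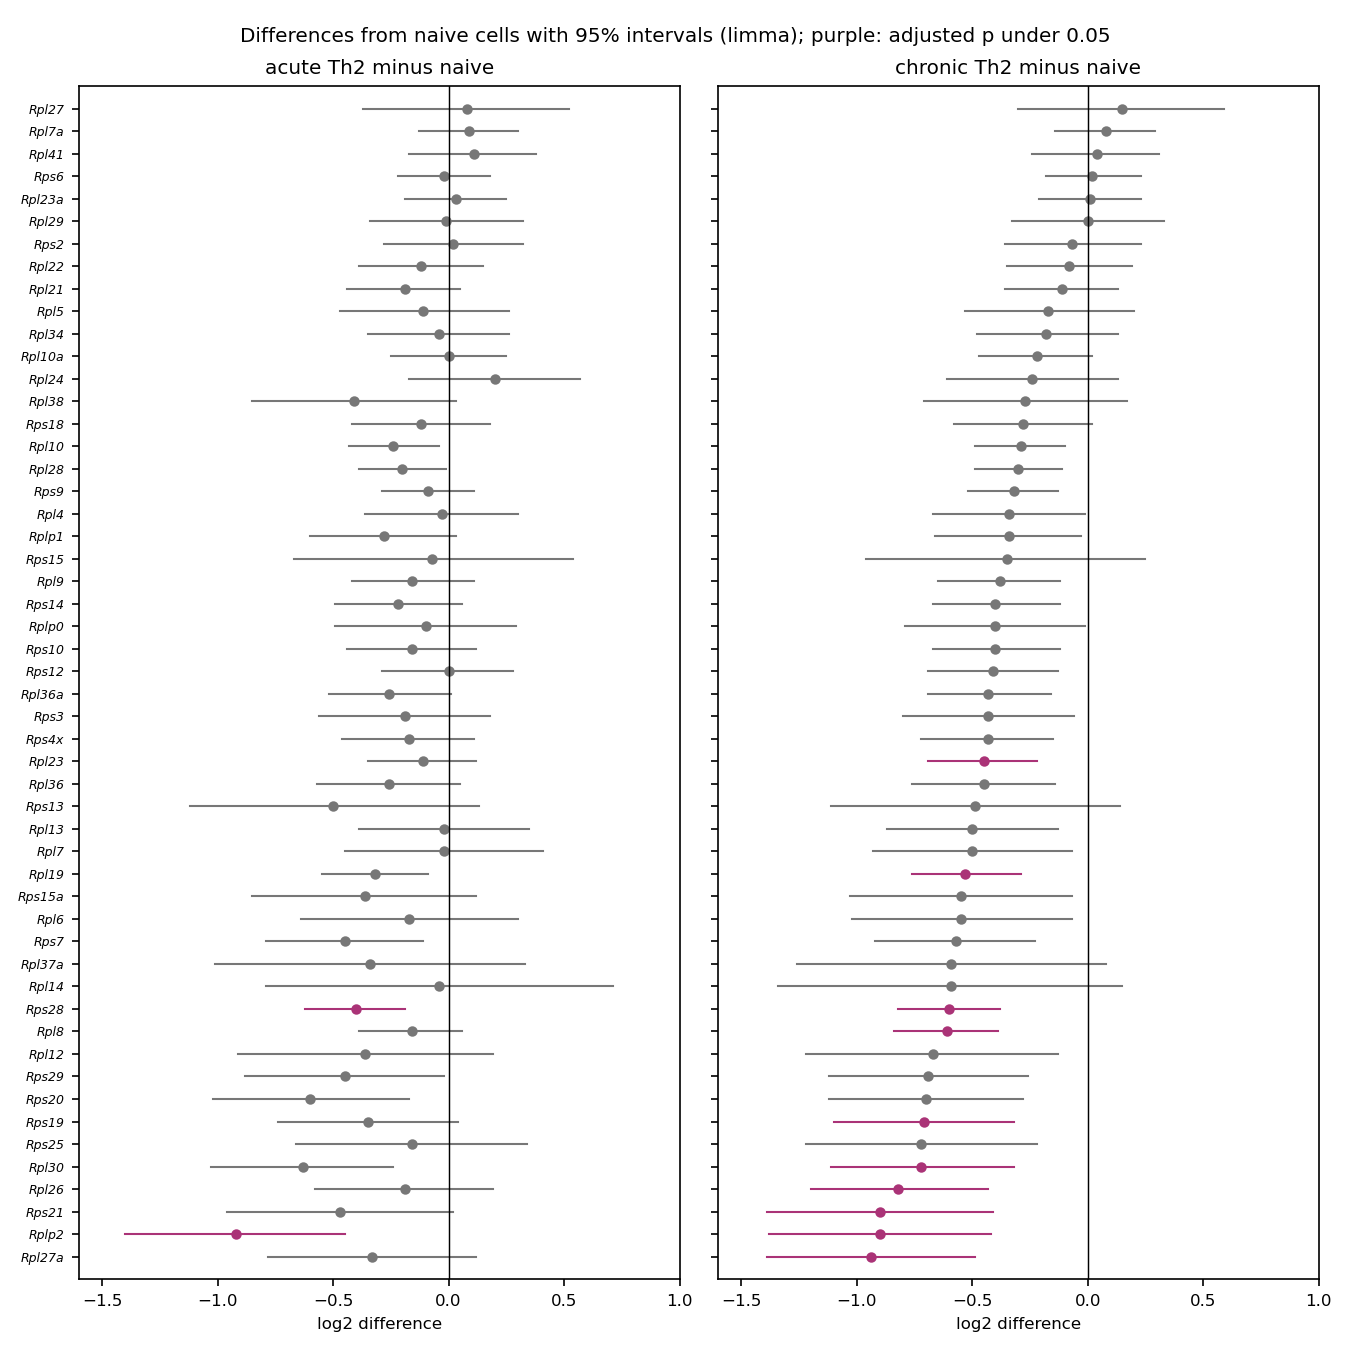
Log2 difference of each of the 52 genes in acute (left) and chronic (right) Th2 cells from naive cells, with 95% intervals from limma and genes at an adjusted p under 0.05 in purple. On the right, 10 genes are purple and 47 points lie left of 0; on the left, 2 are purple. Both panels share the naive arrays.

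Among the small subunit genes 3 of 19 fell in chronic cells, with a median of -0.43 over the 19. Rps28, a protein of the small subunit's head, read 10.80, 10.73 and 10.58 in naive arrays, 10.31, 10.33 and 10.26 in acute arrays and 9.96, 10.14 and 10.23 in chronic arrays. Every chronic array lay under every acute array, and every acute array under every naive one. The chronic difference was -0.60 (SE 0.10, 1.51-fold lower, limma adjusted p = 0.00726). Rps19, whose human counterpart is mutated in Diamond-Blackfan anaemia, was at 10.09, 10.18 and 10.27 in naive and 9.16, 9.36 and 9.90 in chronic arrays, with acute arrays at 9.74 to 9.90. Naive and chronic values did not overlap, though chronic replicate 3 was level with the highest acute array. Its difference was -0.71 (SE 0.17, limma adjusted p = 0.0417). Rps21 had naive values of 9.69, 9.18 and 8.77, tight acute values of 8.73, 8.77 and 8.73, and chronic values of 8.06, 8.34 and 8.55. Naive replicate 1 was the highest of the 9 and chronic replicate 1 the lowest. The difference was -0.90 (SE 0.22, limma adjusted p = 0.0399).

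Other small subunit genes lay below naive levels without passing the threshold. Rps20, another protein of the head, was at 12.21, 12.88 and 12.12 in naive and 11.68, 11.83 and 11.60 in chronic arrays. All chronic values lay under all naive ones, and the difference was -0.70 (limma adjusted p = 0.0565). Rps25, needed for initiation at certain internal entry sites, differed by -0.72 (adjusted p = 0.0848), with overlapping groups. Rps10, also mutated in Diamond-Blackfan anaemia, differed by -0.40 (adjusted p = 0.0889). Rps4x, which is X-linked, differed by -0.43 (adjusted p = 0.0751).

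Rps6, the substrate of the S6 kinases and the brightest member, gave a different picture. It was at 13.40, 13.59 and 13.58 in naive, 13.48, 13.55 and 13.48 in acute, and 13.66, 13.53 and 13.46 in chronic arrays. The 3 groups overlapped throughout. The chronic difference of 0.02 had a 95% interval of -0.18 to 0.23, and its sign turned under 5 of the other ways of processing the values. Of the 11 members at a mean level of 12 or more, Rps6 among them, 0 were called in chronic cells, and their median was -0.29.

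Of the 30 large subunit genes 6 fell, and the median over the 30 was -0.36. Rpl27a was at 11.14, 10.92 and 10.81 in naive, 10.45, 10.77 and 10.65 in acute, and 9.78, 9.78 and 10.50 in chronic arrays. Chronic replicate 3 stood near the acute values and the other chronic arrays well under them. The difference was -0.94 (SE 0.20, 1.92-fold lower, limma adjusted p = 0.0247). Rpl26, a protein at the nascent chain exit, was at 8.99, 8.52 and 8.56 in naive, 8.58, 8.56 and 8.36 in acute, and 7.76, 7.67 and 8.19 in chronic arrays. Naive and acute arrays overlapped, and all chronic arrays lay under both. Its difference was -0.82 (SE 0.17, limma adjusted p = 0.0229).

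Rpl8, a protein close to the peptidyl transferase centre, was among the steadiest of the called genes. Its naive values were 11.00, 11.21 and 11.07, its acute values 10.88, 11.00 and 10.91, and its chronic values 10.33, 10.48 and 10.62. Chronic arrays lay under all others, while acute and naive arrays met at 11.00. The difference was -0.61 (SE 0.10, 1.53-fold lower, limma adjusted p = 0.00739). Rpl19, which forms a bridge between the subunits, was at 12.22, 12.11 and 11.87 in naive, 11.76, 11.78 and 11.71 in acute, and 11.45, 11.60 and 11.58 in chronic arrays. The 3 groups did not overlap, and the chronic difference was -0.53 (SE 0.10, limma adjusted p = 0.0167).

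Rpl23, which lies at the subunit interface, was at 11.44, 11.73 and 11.61 in naive, 11.52, 11.47 and 11.44 in acute, and 11.06, 11.06 and 11.29 in chronic arrays. Only the chronic arrays were set apart, by -0.45 from naive (SE 0.10, limma adjusted p = 0.0324). Rpl30 was at 9.52, 9.69 and 8.99 in naive, 8.81, 8.85 and 8.65 in acute, and 8.53, 8.84 and 8.67 in chronic arrays. Both lung groups lay under all naive arrays and overlapped each other. The chronic difference was -0.72 (SE 0.17, limma adjusted p = 0.0406) and the acute one -0.63 (adjusted p = 0.0804).

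**Figure D2:**
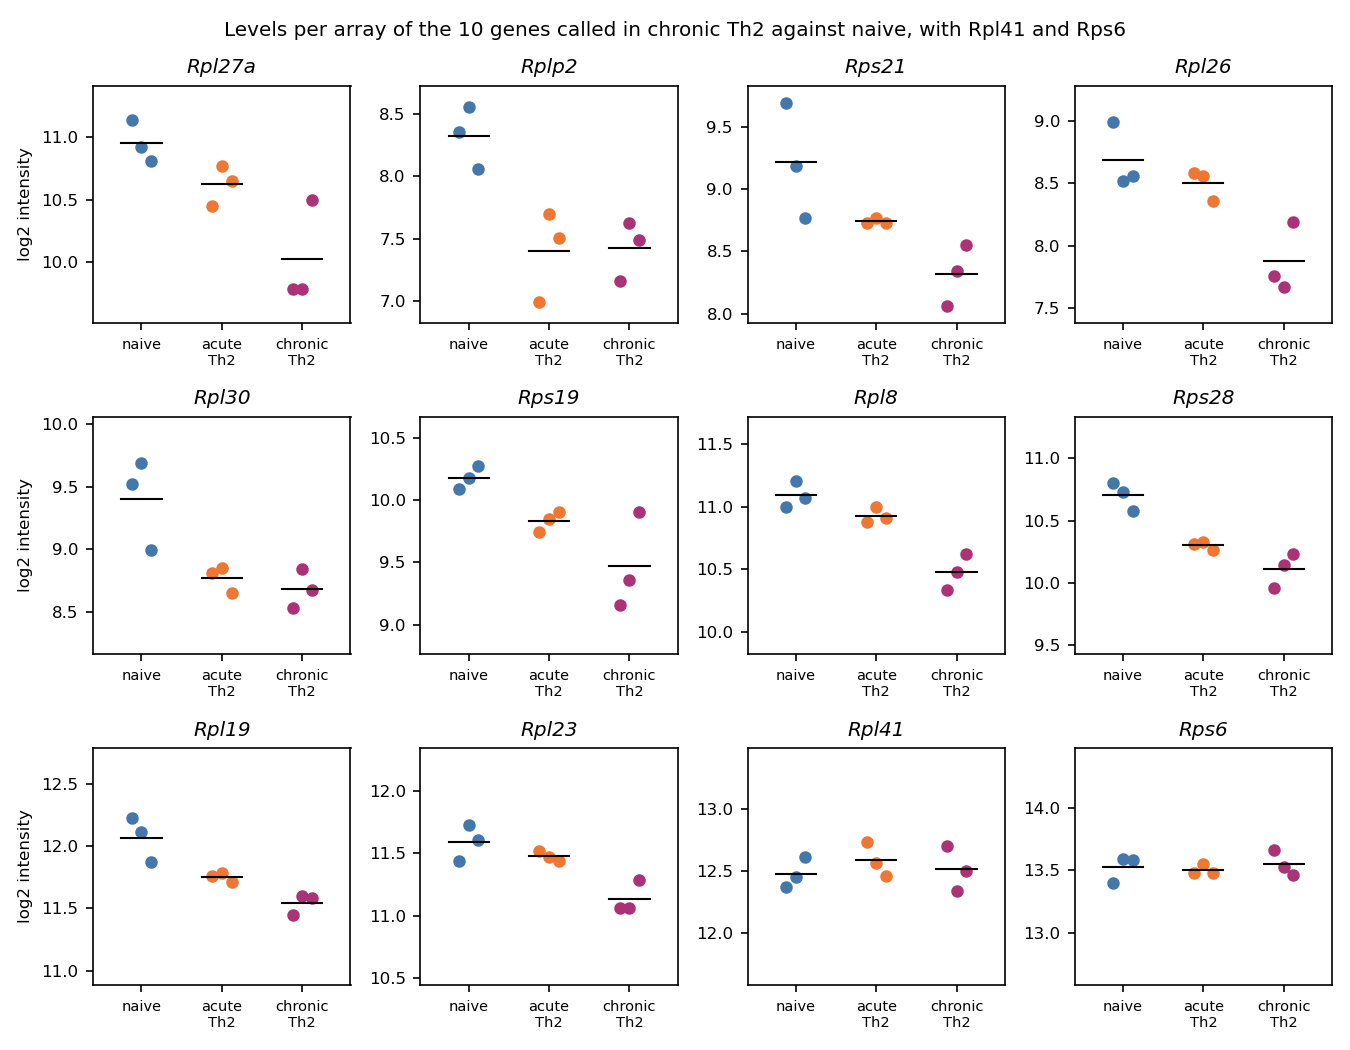
Log2 intensity on each of the 9 arrays (points) with the group mean (line) for the 10 genes called in chronic Th2 against naive cells and for Rpl41 and Rps6; every panel spans the same height. Chronic points lie under all naive points in the 10 genes, while in Rpl41 and Rps6 the groups overlap.

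Large subunit genes at the other end of the range moved little. Rpl41, which encodes the smallest ribosomal protein, was at 12.37, 12.45 and 12.61 in naive and 12.70, 12.34 and 12.50 in chronic arrays, a difference of 0.04 with a 95% interval of -0.24 to 0.31. Rpl27 had the highest difference, 0.15, with an interval of -0.30 to 0.59. Rpl7a followed at 0.08, and its level of 6.78 was the closest of all members to background. For Rps6, Rpl41, Rpl27 and Rpl7a the sign of the chronic difference turned when arrays were centred on background genes, to between -0.26 and -0.38. Rpl22, known for its part in T cell development, differed by -0.08 (adjusted p = 0.684) and turned to 0.07 under quantile normalisation. Rpl5, which carries 5S RNA and can bind the p53 regulator Mdm2, differed by -0.17 (adjusted p = 0.524). Rpl38, which helps select certain mRNAs for translation, differed by -0.27 (adjusted p = 0.393). The X-linked pair lay not at that end but around the large subunit median of -0.36. Rpl10 differed by -0.29 (adjusted p = 0.078) and Rpl36a by -0.43 (adjusted p = 0.0611), both with all chronic arrays under all naive ones.

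The stalk recruits the GTPases that drive elongation, through Rplp0 at its base and the acidic proteins Rplp1 and Rplp2. Rplp2 was at 8.36, 8.56 and 8.06 in naive, 6.99, 7.70 and 7.51 in acute, and 7.16, 7.63 and 7.49 in chronic arrays. Both lung groups lay under all naive arrays and overlapped one another. Its difference was -0.92 in acute (SE 0.21, 1.90-fold lower, limma adjusted p = 0.0373) and -0.90 in chronic cells (SE 0.21, limma adjusted p = 0.0354). Rplp0 differed by -0.40 (adjusted p = 0.182) and Rplp1 by -0.34 (adjusted p = 0.166) in chronic cells, so the 3 stalk genes had 1 call between them. The level of Rplp2 was read from 1 probe set.

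The calls in chronic cells depended on which arrays were in the fit. Without naive replicate 1, which stood apart in general, 21 members fell, the earlier 10 among them, and the median was -0.43, while the share of all genes called lower went from 4.2% to 11.4%. Without chronic replicate 1 the count was 2, beside 1.56% of all genes called lower. Without naive replicate 2, chronic replicate 2 or acute replicate 3 it was 4 each, of which 3, 3 and 4 were among the 10. All genes called lower then made up 2.68%, 2.03% and 2.48%. Without acute replicate 2 the members called numbered 6, beside 2.67% of all genes. The median stayed between -0.34 and -0.45 in all 9 such fits. Rpl8 and Rps28 kept their calls in all 9 and also under the 9 other processing alternatives. A fit on the naive and chronic arrays alone called 2 members, beside 1.49% lower of all genes.

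Acute Th2 cells showed a smaller shift, with 2 of 52 members lower than naive and 0 higher. These were Rplp2, given above, and Rps28, which fell by 0.40 on the log2 scale (SE 0.10, limma adjusted p = 0.0452). Over all genes 2.2% were called lower and 3.67% higher, so the members' share of 3.85% lies near that of the whole table. Without dim genes the same 2 were called, beside 4.45% lower of the 10579 genes kept. At an unadjusted p under 0.05 there were 9 lower and 0 higher, beside 1650 lower of all 19937 genes. The members' median was -0.17, with 45 of 52 below 0, beside -0.03 and 58.1% over all genes. The groups did not overlap for 15 members in the lower direction and for 0 in the higher, against 10.9% and 8.8% of all genes.

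After Rplp2, the largest acute differences below 0 were Rpl30 at -0.63 and Rps20 at -0.60 (limma adjusted p = 0.128). The largest above 0 were Rpl24, a bridge protein, at 0.20 (adjusted p = 0.661), Rpl41 at 0.11 and Rpl7a at 0.09. With array weights the value for Rpl41 turned to -0.05. Both calls were lost in several fits: without naive replicate 2, acute replicate 1, acute replicate 3 or chronic replicate 2 there were 0 called members. Leaving out acute replicate 2 or chronic replicate 3 left 1, and leaving out naive replicate 1 or naive replicate 3 gave 4. With 1 array left out, the share of all genes called lower ran from 0.968% (without acute replicate 3) to 6.11% (without naive replicate 1). Without naive replicate 1 Rps28 was at -0.36 (adjusted p = 0.0601) and Rplp2 at -0.91 (adjusted p = 0.0366). Centring arrays on all genes or on background genes, or fitting the naive and acute arrays alone, gave 0 as well.

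Between the 2 stages in the lung, 0 of 52 members were called in either direction, and limma called 0.015% of all genes lower and 0.015% higher. At an unadjusted p under 0.05 there were 10 members, all lower in chronic cells, beside 957 lower of all 19937 genes. The median was -0.20 with 44 of 52 below 0, beside 0.04 and 42.4% over all genes. Other bright genes were also lower in chronic cells: the median was -0.19 with 84.7% below 0 for those at a mean level of 8 to 10, and -0.11 with 71.7% below 0 for those at 10 or more. Chronic arrays lay under all acute arrays for 21 members and above them for 0, while 10.8% and 11.8% of all genes were separated in those directions. Rpl26 (-0.62), Rpl27a (-0.60) and Rps25 (-0.56) had the largest differences, each at an adjusted p of 0.322 and with 95% intervals that reached from -0.24, -0.15 and -0.06 down to -1.01, -1.06 and -1.06. Rpl8 was at -0.45 with an adjusted p of 0.307. The highest were Rpl38 at 0.14, Rpl21 at 0.08 and Rpl27 at 0.07, and all turned negative when arrays were centred on background genes. With array weights 16 members were called lower, in a fit that called 13.8% of all genes lower and 3973 genes higher.

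Of the 52 members, 38 had group means in the order naive, acute, chronic from high to low. This order was not counted over all genes, so whether it is particular to the members was not tested. The median over members on each array was 11.09, 11.11 and 10.95 in naive, 10.88, 10.89 and 10.77 in acute, and 10.50, 10.76 and 10.67 in chronic samples. These values did not overlap between the groups, though acute replicate 3 (10.77) and chronic replicate 2 (10.76) were nearly level. Chronic replicate 1 was the lowest of the 9 arrays for 22 members, and naive replicate 2 the highest for 26. The spread within a group also differed: the median SD of a member was 0.24 in naive, 0.08 in acute and 0.16 in chronic cells. The largest within-group SD, 0.75, was that of Rpl14 in naive cells, where its values were 6.89, 8.38 and 7.53.

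Other measures moved with the same arrays. The olfactory receptor genes read higher in chronic samples, with array medians of 5.06, 4.94 and 5.10 in naive, 4.98 to 5.21 in acute, and 5.67, 5.51 and 5.15 in chronic arrays. Their median difference between chronic and naive cells was 0.34, with 40 of 1015 called higher and 0 lower. Other genes were read by brightness. The 470 other genes at a mean level of 10 or more had a chronic median of 0.04, with 46.4% below 0 and 24 called lower (5.11%). Their median deviation was -0.28 on naive replicate 1 and 0.04 and 0.05 on the other naive arrays. The 3578 other genes between 8 and 10 also lay lower, with a median of -0.21, 70.7% below 0 and 348 called lower (9.73%). With arrays centred on the background genes, the members' chronic median was -0.83 beside -0.37 for all genes, and with arrays centred on all genes it was -0.48 beside -0.02. The part of the background level in the members' values was not tested beyond these rescalings.

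**Figure D3:**
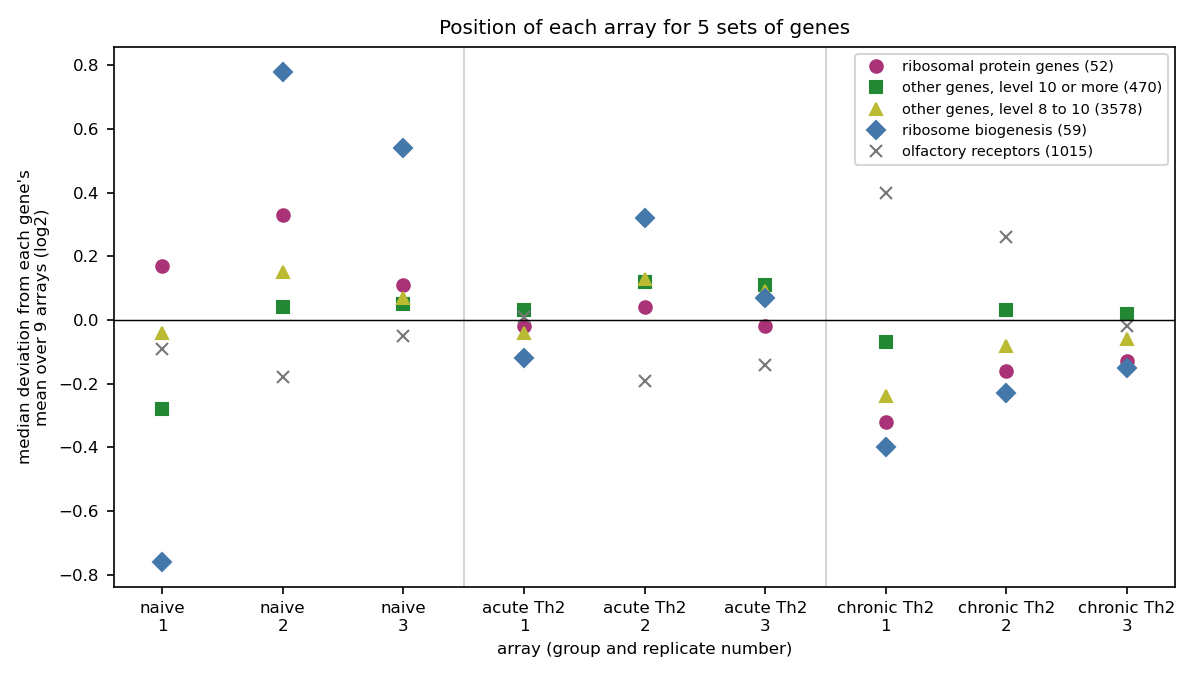
Median deviation of 5 sets of genes on each array from the genes' own means over the 9 arrays (log2). The ribosomal protein genes lie at 0.17, 0.33 and 0.11 on naive arrays and at -0.32, -0.16 and -0.13 on chronic arrays; ribosome biogenesis genes lie at -0.76 on naive replicate 1 and 0.78 and 0.54 on the other naive arrays, and olfactory receptor genes lie highest on chronic replicates 1 and 2.

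Among the members themselves, the dimmer ones differed more. The 11 members at a mean level of 12 or more had a chronic median of -0.29 with 0 called. The 29 between 10 and 12 had -0.43 with 5 called, and the 12 under 10 had -0.63 with 5 called. Spearman's correlation of level and chronic difference was 0.38 over the 52 members, which were read from the same 9 arrays.

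Most members could be read more than once, since 36 had several probe sets of their own, up to 10, and the 52 genes had 179 in all. In a limma fit over all 34760 probe sets, 28 of the 179 fell in chronic cells and 0 rose, while 3.15% of all probe sets fell. Of the 179, 160 lay below 0, with a median of -0.40. All probe sets lay below 0 for 22 of the 36 genes, and both signs occurred for the other 14. Rpl36 had 5 of its 8 probe sets called lower, with differences from -1.99 to -0.45, though its brightest probe set was not among the 10 calls by gene. Rps28 had 3 of 5 called and a range of -0.78 to -0.60, and Rpl27a had 3 of 9 called and a range of -0.99 to 0.03. Rps6 ranged from -0.81 to 0.18 over 7 probe sets with 0 called. Rpl30 and Rps19, with 1 probe set each, were not called in this larger fit. The brightest of the 2 probe sets of Rps21 was not called either (limma adjusted p = 0.0542), though the dimmer one was (adjusted p = 0.0419). Rpl19 had 2 of 6 called, its brightest included, and a range of -0.93 to 0.08. In acute cells the same fit called 0 of the 179, and 143 lay below 0.

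**Figure D4:**
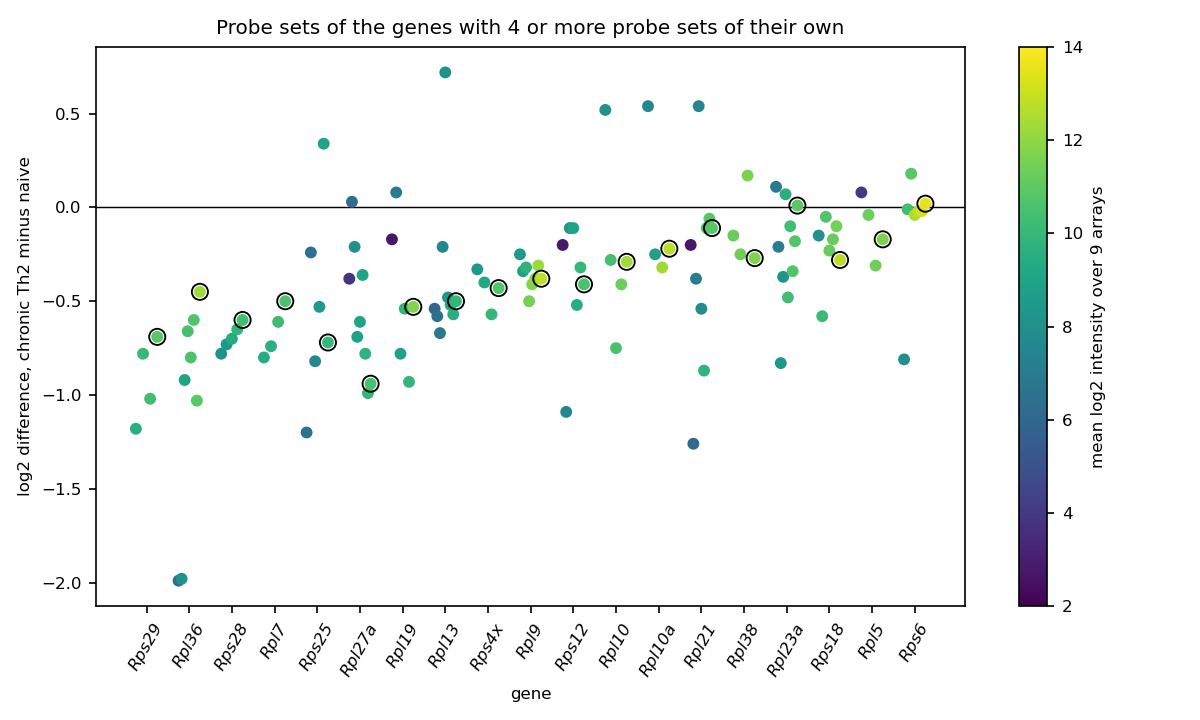
Chronic minus naive log2 difference of the 120 probe sets of the 19 genes with 4 or more probe sets, coloured by mean log2 intensity, with the brightest probe set of each gene ringed. Probe sets of Rpl36, Rps28 and Rps29 all lie below 0, whereas Rps6, Rpl21 and Rpl13 have probe sets on both sides.

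Genes that work with the ribosomal proteins were read from lists. Over all genes, chronic against naive, 4.2% were called lower, 3.68% higher, and the median was 0.04. Among 9 ribosomal protein genes outside the naming rule, 1 fell in chronic cells: Fau, whose product carries Rps30, at -0.57 (limma adjusted p = 0.0141). Rpsa, a small subunit protein, differed by -0.62 (adjusted p = 0.0548) and Rps3a1 by -0.66 (adjusted p = 0.0651). Rps27l and Rpl39l, close relatives of Rps27 and Rpl39, differed by 1.07 (adjusted p = 0.157) and 0.34 (adjusted p = 0.199). Rpl39l had means of 5.34 in chronic and 5.01 in naive cells, under the background threshold of 6.53, as had Rpl3l (5.2 and 5.19) and Rpl10l (6.05 and 6.26). The median of the 9, these included, was 0.01 with 4 below 0. Of 59 ribosome biogenesis genes, 2 fell and 1 rose in chronic cells, and 58 lay below 0 with a median of -0.44. Nop10, part of the particles that modify uridine in ribosomal RNA, fell by 1.26 (adjusted p = 0.035). Efl1, the GTPase that frees the large subunit of Eif6, fell by 0.57 (adjusted p = 0.0435). Riok3, a kinase of small subunit maturation, rose by 0.86 (adjusted p = 0.00324) in chronic and by 1.24 (adjusted p = 0.000398) in acute cells. Of 15 genes of RNA polymerase I transcription 1 fell in chronic cells, the polymerase subunit Twistnb, by 0.74 (adjusted p = 0.00866), and 0 rose. All 15 lay below 0, with a median of -0.48. The biogenesis median of naive replicate 1 was 7.88, under the 8.24 to 8.35 of the chronic arrays, while the other naive arrays were at 9.45 and 9.22.

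Among 17 measured genes of elongation and other mRNAs with a pyrimidine tract, 3 fell in chronic cells and 0 rose. The 17 had a median of -0.29, with 15 below 0. Gas5, a host gene of small nucleolar RNAs with such a tract, was at 10.54, 11.03 and 10.93 in naive, 9.80, 9.87 and 9.66 in acute, and 9.42, 9.74 and 9.86 in chronic arrays. Naive arrays lay above all lung arrays, by 1.06 in acute (limma adjusted p = 0.00503) and 1.16 in chronic cells (adjusted p = 0.00294), and Gas5 was the 1 gene of the list called in acute cells. The initiation factor 3 subunits Eif3f and Eif3k fell by 0.68 (adjusted p = 0.0011) and 0.55 (adjusted p = 0.0255) in chronic cells. Of 25 initiation factors 2 fell, Eif5 by 0.52 and the scaffold Eif4g3 by 0.49, and 0 rose. The 25 had a median of -0.34, with 22 below 0. Among 21 regulators 5 fell and 0 rose, with a median of -0.31 and 18 below 0. Those that fell were Eif4ebp2, a translation repressor, by 0.61, Mtor by 0.46 and the transcription factor Sp1 by 0.44. The Mtor partner Rptor fell by 0.41, and Tsc2, an inhibitor of the pathway, by 0.37. Myc, which drives ribosome production, differed by -0.47 (adjusted p = 0.538), and Larp1 by -0.13 (adjusted p = 0.665). The naive arrays were far apart for Myc, at 10.19 on replicate 1 and 12.15 and 12.19 on the others, with chronic arrays at 11.26, 11.12 and 10.74. Of 77 mitochondrial ribosomal protein genes, Mrpl30 fell by 0.49 and Mrpl33 rose by 0.75 in chronic cells, with a median of -0.17 and 60 below 0.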

How the data were processed

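The authors deposited log2 intensities of 34760 probe sets on 9 Affymetrix arrays, made with RMA per the submitters' processing notes; for its version, genome build and filters, the notes are silent (not given in the sources used here). Of these probe sets 21640 name 1 gene, 1321 several and 11799 none, by the platform's annotation, and 21553 were matched to RefSeq by gene identifier. The brightest probe set stood for each of 19937 genes. Differences were fitted by limma's lmFit, contrasts.fit and eBayes (version 3.58.1, under R 4.3.3), two-sided, over all 9 arrays with group as the 1 factor and Benjamini-Hochberg adjustment over all genes. The procedure was tested on simulated data. Array number, 3 a group, limits the precision. The 3 comparisons share arrays. Alternatives were a replicate block, 2-group fits, array weights, a trended robust prior, 3 rescalings, the mean over probe sets, a filter on dim genes and leaving out each array. Named genes are all called members, the 3 highest and 3 lowest differences a comparison, the 5 brightest, dimmest and most variable members, and members with a set role; from each list, up to 4 called genes. Genes named beyond these, such as Rpl36, Rpsa, Rps3a1, Rps27l and Larp1, were picked once their values had been seen. The members and lists were chosen with earlier results of these data known. Promoter sequences are from RefSeq on GRCm38.p6; 11 members had no entry.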

Additional observations from a re-analysis of the deposited data

Results flagged for a closer look

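Rpl24, a large subunit protein at the bridge between the subunits, was picked out because its acute and chronic arrays lay on opposite sides of the naive mean of 10.63. It was at 10.77, 10.77 and 10.36 in naive, 10.92, 10.89 and 10.68 in acute, and 10.10, 10.45 and 10.62 in chronic arrays. The difference from naive cells was -0.24 in chronic and 0.20 in acute cells, and neither passed the threshold. Chronic minus acute, which is the test of the contrast between them, was -0.44 (limma adjusted p = 0.322).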

How the results depend on the processing

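The members' median kept its sign in every alternative run; it moved beyond the arrays' spread only with background centring, to -0.83 for chronic minus naive and -0.58 for chronic minus acute, where the median of all genes went to -0.37 and -0.33. Background centring called 314 genes higher and 3285 lower in chronic minus naive cells and 0 and 44 in chronic minus acute, and quantile normalisation 800 and 599 in the first, against 734 and 837 as deposited. Members called in chronic minus naive cells (10) numbered 2 with those groups alone, 23 with array weights, 6 with the trended robust prior, 18 with median centring and 34 with background centring, all lower, and 2 to 21 with 1 array left out. The share of all genes called lower was 1.49%, 3.45%, 4.94% and 16.5% in that order, array weights aside, beside 4.2% as deposited. Without dim genes 13 members fell, beside 9.17% of the 10579 genes kept. In acute minus naive cells (2) the members called numbered 0, 12, 1, 0 and 0 in the same order, and 0 to 4 with 1 array left out. The shares there were 1.15%, 1.92%, 1.88% and 0.988%, array weights aside, beside 2.2%. In chronic minus acute cells (0) the members called numbered 16 with array weights and 0 otherwise. Array weights called 13.0%, 10.4% and 13.8% of all genes lower in these comparisons.

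Signs turned only for genes that were not called. With array weights Rpl41 was -0.05 and Rpl5 0.01 in acute minus naive cells, and Rpl38 0.02, Rpl41 -0.11 and Rps6 -0.03 in chronic minus naive. Quantile normalisation gave Rpl22 0.07, Rpl41 -0.00 and Rps6 -0.05 there, and median centring Rpl41 -0.03 and Rps6 -0.04. Background centring gave Rpl27 -0.26, Rpl41 -0.37, Rpl7a -0.33 and Rps6 -0.38, and in chronic minus acute cells Rpl21 -0.30, Rpl27 -0.31 and Rpl38 -0.24. The mean over probe sets gave Rpl27 -0.22, Rpl7a -0.03 and Rps6 -0.10, and in chronic minus acute cells Rpl21 -0.26 and Rpl27 -0.14. With 1 array left out, acute minus naive ran from -0.21 to 0.01 for Rpl22, -0.28 to 0.05 for Rpl5, -0.35 to 0.01 for Rps25 and -0.08 to 0.01 for Rps6. Chronic minus naive ran from -0.17 to 0.05 for Rpl22, -0.00 to 0.30 for Rpl27, -0.06 to 0.12 for Rpl41 and -0.04 to 0.07 for Rps6. Chronic minus acute ran from -0.02 to 0.22 for Rpl27 and -0.02 to 0.25 for Rpl38. The cause was not tested. Of the other values of single named genes, 740 kept direction and side of the threshold, 77 no longer passed it and 29 newly did.

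Deviations from group means correlated at -0.09 to 0.57 between same-numbered arrays and at -0.56 to 0.44 between other-numbered arrays of different groups. These ranges overlap, and whether the replicate numbers mark a pairing was not tested. The replicate block called 15 members in chronic minus naive cells, 9 of them shared with the 10. In acute minus naive cells it called 2, with 1 shared, and in chronic minus acute 0. Medians were -0.42, -0.17 and -0.20, and the block called 5.29%, 2.29% and 0.0% of all genes lower.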
